A study of Mus musculus with 7 samples.

Results

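The genes described here are 10 members of the interleukin-6 (IL-6) family pathway in mouse skin, out of 55450 genes counted. The rule lists them by name and uses no measured value, although the choice was made with earlier results of these data known: the cytokine genes *Il6*, *Il11*, *Lif* and *Osm*, the receptor genes *Osmr*, *Lifr*, *Il6st* and *Il6ra*, the transcription factor gene *Stat3*, and *Socs3*, the feedback gene that STAT3 induces. Bulk RNA sequencing was performed on dorsal skin of aged (24-month-old) wild type C57BL/6 male mice after 5 days of topical treatment under a semi-occlusive dressing, with 1 library per mouse. The control group received the vehicle DMSO alone (4 mice, numbered 480 to 483), and the treated group received 5 μM ABT-263 (3 mice, numbered 476 to 478). ABT-263 (navitoclax) is an inhibitor of anti-apoptotic Bcl-2 family proteins that is used as a senolytic, and the comparison asks how these skins differed in gene expression after treatment. All animals had dorsal hair removed with clippers and a depilatory lotion, and no untreated or unshaved skin was analysed here.

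Cytokines of the IL-6 family share the receptor chain gp130, encoded by *Il6st*. IL-6 first binds IL6RA, IL-11 first binds IL11RA, LIF signals through LIFR paired with gp130, and oncostatin M (OSM) in the mouse signals mainly through OSMR paired with gp130. The receptor complexes activate Janus kinases (JAK), which phosphorylate STAT3, and STAT3 then induces SOCS3, a protein that binds gp130 and the kinases and ends the signal. In skin these cytokines are known for roles in wound repair, in the response of keratinocytes and fibroblasts to injury, and in acute inflammation.

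The libraries held between 20344364 and 43562330 counted read pairs, and the ABT-263 libraries were the 3 largest. Expression is given as CPM, counts scaled by the size of each library after TMM normalization. Summed keratinocyte markers (6 of 6 genes detected in every mouse) spanned 20723 to 50623 CPM in controls and 17914 to 50605 CPM in treated mice, and summed skeletal muscle markers (5 genes) spanned 25675 to 51580 CPM and 20835 to 28607 CPM, so the samples held muscle RNA beside skin RNA. Summed hair follicle markers (6 genes) reached 2068 CPM in DMSO mouse 481 and 406 CPM in ABT-263 mouse 478, and were at most 13.4 CPM in the other mice. In bulk tissue, fewer cells of a type and less RNA per cell cannot be told apart. ABT-263 mouse 476 had the highest value of its group for 10 of the 10 genes, and DMSO mouse 483 for 7 of the 10, so results are also given without single mice.

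With the adjusted threshold of 0.05 in edgeR (quasi-likelihood test), *Lif*, *Osm*, *Osmr*, *Lifr* and *Socs3* were higher after ABT-263 and *Il6ra* was lower, which makes 5 higher and 1 lower of the 10 genes, all of which passed the filter on low counts. *Il6*, *Il11*, *Il6st* and *Stat3* did not pass. Over all 17959 genes tested, 24.2% passed in either direction, 12.4% upward and 11.7% downward. The median log2 fold change was 1.44 for the 10 genes (0.71 without mouse 476) and 0.00 for all genes tested. The ABT-263 and DMSO mice did not overlap for 6 of the 10 genes (5 above and 1 below), against 37.1% of all genes tested (18.7% above and 18.4% below). The calls were fewer when some mice were left out. The count was 3 without DMSO mouse 480, 3 without DMSO mouse 482 and 3 without ABT-263 mouse 476, where 23.5%, 10.3% and 12% of all genes tested passed.

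**Figure D1:**
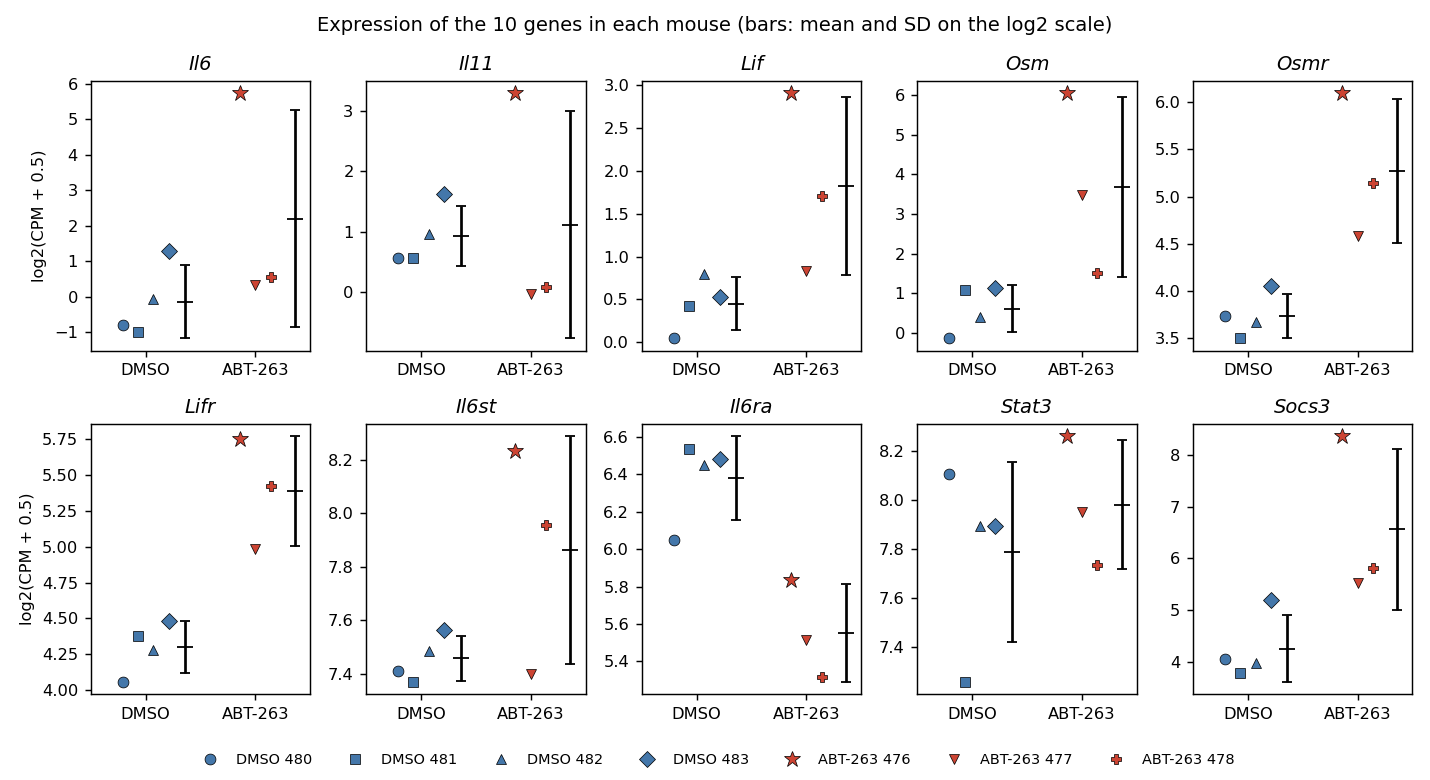
Expression of the 10 genes in each of the 4 DMSO and 3 ABT-263 mice as log2(CPM + 0.5), with 1 symbol per mouse and with the mean and SD of each group beside the points. The star, ABT-263 mouse 476, lies highest among treated mice in all 10 panels, and the groups are separate for *Lif*, *Osm*, *Osmr*, *Lifr*, *Socs3* and, in the other direction, *Il6ra*.

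Among the ligands, *Osm* and *Lif* were higher after ABT-263, whereas *Il6* and *Il11* were high in 1 treated mouse. *Osm* (chromosome 11 from 4236420 to 4241026 in GRCm38) encodes oncostatin M, a cytokine made mainly by neutrophils, macrophages and T cells. It was at 0.409, 1.60, 0.821 and 1.68 CPM in DMSO mice 480 to 483 and at 65.2, 10.6 and 2.34 CPM in ABT-263 mice 476 to 478. Every treated mouse lay above every control, and the treated mice differed widely among themselves. *Osm* had a log2 fold change of 4.51 (standard error 1.08, 95% interval 2.00 to 7.03, adjusted p = 0.0256). Without mouse 476 it was 2.52 (adjusted p = 0.0567), and the call was also lost without DMSO mouse 480 (adjusted p = 0.0542), 482 (0.0664) or 483 (0.0588).

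*Lif* (chromosome 11 from 4257557 to 4272514), which encodes leukemia inhibitory factor, lies next to *Osm*. It was at 0.532, 0.843, 1.23 and 0.945 CPM in DMSO mice 480 to 483 and at 6.97, 1.29 and 2.77 CPM in ABT-263 mice 476 to 478. The groups did not overlap, but mouse 477 stood only just above the highest control. The log2 fold change of *Lif* was 2.04 (adjusted p = 0.0352, standard error 0.57). Its call rested on the full set of mice, since it was lost in 6 of the 7 fits that left out 1 mouse. Without mouse 476 the log2 fold change was 1.20 (adjusted p = 0.125), and without mouse 480, 481, 482, 483 or 478 the adjusted p was 0.0674, 0.0779, 0.0679, 0.0800 or 0.0692.

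*Il6* (chromosome 5 from 30013114 to 30019981) encodes IL-6 itself, the founding cytokine of the family. It was at 0.0818, 0, 0.462 and 1.93 CPM in DMSO mice 480 to 483 and at 52.5, 0.756 and 0.967 CPM in ABT-263 mice 476 to 478. Mouse 476 thus held 1468 of the 1601 read pairs counted for *Il6* in the series, and the other treated mice lay within the range of the controls. In mouse 481 no read pair was counted, which allows up to 0.126 CPM (3 counts, counting error only). Its log2 fold change was 4.84 with a standard error of 1.81 (adjusted p = 0.0907), and it was 0.48 without mouse 476 (adjusted p = 0.843).

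*Il11* (chromosome 7 from 4772373 to 4782859), which encodes a cytokine made by fibroblasts and other stromal cells, was also highest in 1 treated mouse. It was at 0.982, 0.969, 1.44 and 2.59 CPM in DMSO mice 480 to 483 and at 9.30, 0.479 and 0.559 CPM in ABT-263 mice 476 to 478. Mouse 476 was the highest of all mice, whereas mice 477 and 478 were the lowest. The estimate of 1.18 on the log2 scale (adjusted p = 0.421, standard error 1.02) changed sign to -1.51 without mouse 476 (adjusted p = 0.105).

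The receptor genes moved in both directions. The signaling chains *Osmr* and *Lifr* were higher after ABT-263, the IL-6 binding chain *Il6ra* was lower, and the shared chain *Il6st* did not pass the threshold. *Osmr* (chromosome 15 from 6813577 to 6874969) encodes the oncostatin M receptor, which keratinocytes, fibroblasts and endothelial cells carry. It was at 12.7, 10.7, 12.2 and 16.1 CPM in DMSO mice 480 to 483 and at 68.0, 23.5 and 34.9 CPM in ABT-263 mice 476 to 478. All treated mice were above all controls, and the lowest treated value was well clear of the highest control. *Osmr* rose by 1.70 on the log2 scale (95% interval 0.92 to 2.48, standard error 0.34, adjusted p = 0.0139), a 3.25-fold rise. *Osmr* passed in 7 of the 7 fits that left out 1 mouse, with a log2 fold change of 1.18 without mouse 476 (adjusted p = 0.0204).

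*Lifr* (chromosome 15 from 7090614 to 7197489), the LIF receptor, lies near *Osmr* on the same chromosome and had the smallest adjusted p-value of the 10 genes. It was at 16.2, 20.3, 18.9 and 21.9 CPM in DMSO mice 480 to 483 and at 53.3, 31.2 and 42.3 CPM in ABT-263 mice 476 to 478. The groups were separate and the treated mice were closer to each other than for any ligand. *Lifr* rose by 1.13 on the log2 scale (95% interval 0.68 to 1.58, standard error 0.20, adjusted p = 0.00943), a 2.19-fold rise. It also passed in 7 of 7 fits with a mouse left out, where the log2 fold change of *Lifr* lay between 0.94 and 1.34.

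*Il6ra* (chromosome 3 from 89864059 to 89913196) was the only one of the 10 genes with a negative log2 fold change. It was at 65.6, 92.1, 87.0 and 88.9 CPM in DMSO mice 480 to 483 and at 56.6, 45.1 and 39.3 CPM in ABT-263 mice 476 to 478. Every treated mouse lay below every control, with DMSO mouse 480 the control nearest to them. For *Il6ra* the log2 fold change was -0.83 (adjusted p = 0.0164, standard error 0.18), which puts it at 56.3% of the DMSO level. The fall was as large without mouse 476 (a log2 fold change of -0.98, adjusted p = 0.0204), and the call was lost without mouse 478 (-0.71, adjusted p = 0.0600).

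*Il6st* (chromosome 13 from 112464070 to 112510086), which encodes gp130, was at 170, 165, 179 and 188 CPM in DMSO mice 480 to 483 and at 301, 168 and 248 CPM in ABT-263 mice 476 to 478. Mice 476 and 478 were above all controls, and mouse 477 was among them. Its log2 fold change was 0.45 (95% interval -0.00357 to 0.89, adjusted p = 0.127). It passed only without that mouse, at 0.67 (adjusted p = 0.0265).

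The metalloproteases ADAM10 and ADAM17, which can shed IL6RA from the cell surface, were measured beside the receptors. *Adam10* was at 40.6 ± 1.47 CPM in controls (SD, n = 4) and rose to 66.9 ± 14.1 CPM in treated mice (SD, n = 3), with log2 fold change 0.72 (adjusted p = 0.0158). *Adam17* was at 30.7 ± 6.48 CPM in controls (SD, n = 4) and rose to 52.1 ± 6.77 CPM in treated mice (SD, n = 3), with log2 fold change 0.76 (adjusted p = 0.0233). In both genes all treated mice exceeded all controls. *Adam10* passed with any 1 mouse left out, and *Adam17* lost the call without DMSO mouse 482 (adjusted p = 0.0545) or 483 (0.0642) and without ABT-263 mouse 476 (0.0675) or 478 (0.0633).

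The balance of the OSM and LIF receptors was compared within each mouse as the ratio of *Osmr* to *Lifr* in counts per kb of exon, a measure that does not depend on the scaling between libraries. It was 0.700, 0.472, 0.574 and 0.654 in DMSO mice 480 to 483 and 1.13, 0.669 and 0.733 in ABT-263 mice 476 to 478. The groups overlapped. The mean difference of the log2 ratio was 0.47 (exact permutation test, two-sided, p = 0.114), which did not pass 0.05. Of the exon bases, 54.7% for *Osmr* and 4.63% for *Lifr* lie in introns of the longest coding transcript. The ratio therefore compares mice and does not show which of the *Osmr* and *Lifr* transcripts was more abundant.

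**Figure D2:**
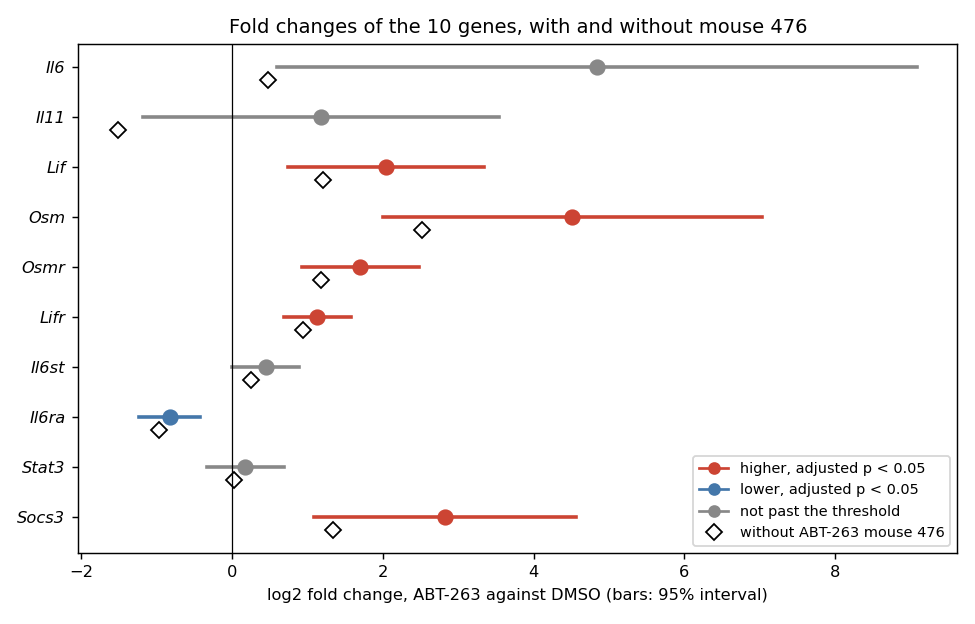
Log2 fold change of each of the 10 genes, ABT-263 against DMSO, from edgeR (filled circles with 95% intervals, red higher, blue lower, grey not past the threshold) and the same value without ABT-263 mouse 476 (open diamonds). Without that mouse *Osmr* goes from 1.70 to 1.18, *Lifr* from 1.13 to 0.94 and *Il6ra* from -0.83 to -0.98, *Il6* goes from 4.84 to 0.48 and *Il11* from 1.18 to -1.51.

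*Stat3*, the transcription factor through which the family acts, was abundant in both groups and did not pass the threshold, whereas its feedback gene *Socs3* was higher after ABT-263. *Stat3* (chromosome 11 from 100885098 to 100939540) was at 275, 153, 237 and 237 CPM in DMSO mice 480 to 483 and at 306, 247 and 212 CPM in ABT-263 mice 476 to 478. The groups overlapped, with DMSO mouse 481 lowest. The log2 fold change of *Stat3* was 0.18 (95% interval -0.33 to 0.69, adjusted p = 0.587). Transcript levels carry no information on the phosphorylation of STAT3.

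*Socs3* (chromosome 11 from 117966079 to 117970047) was at 16.1, 13.3, 15.2 and 36.3 CPM in DMSO mice 480 to 483 and at 329, 45.6 and 55.9 CPM in ABT-263 mice 476 to 478. Every treated mouse was above every control, although DMSO mouse 483 came near mouse 477. *Socs3* had a log2 fold change of 2.83 (standard error 0.75, 95% interval 1.09 to 4.56, adjusted p = 0.0333). Without mouse 476 it was 1.33 (adjusted p = 0.0779), and the call was also lost without DMSO mouse 480 (adjusted p = 0.0709), 481 (0.0706) or 482 (0.0809). Within each mouse, the ratio of *Socs3* to *Stat3* in counts per kb of exon was 0.193, 0.286, 0.211 and 0.505 in DMSO mice 480 to 483 and 3.55, 0.608 and 0.868 in ABT-263 mice 476 to 478. The groups did not overlap (mean log2 difference 2.15, p = 0.0286 in the two-sided exact permutation test, which is the smallest value that 4 mice against 3 allow).

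STAT proteins bind DNA at palindromes of the form TTCNNNGAA, whose fixed letters read the same on both strands. The 250 bases before the RefSeq start sites on GRCm38.p6 were searched for these letters in the 9 of the 10 genes with an entry, and *Socs3* alone held a match. Of all 32851 promoter entries, 7.02% held at least 1 match, as did 8.13% of the 27025 genes with an entry. The *Socs3* site, on chromosome 11 from 117969512 to 117969520, begins 154 bases before that start site and 334 bases before the start of Socs3-201, the transcript that GENCODE lists as coding. It lies inside an intron of the noncoding transcript Socs3-202 and in no annotated exon. The bases between the RefSeq start site and the start of Socs3-201 were not searched. The surrounding 59 bases, chr11:117969487-117969545 on the minus strand, are shown because they hold the only match among these genes, with the site in capitals.
Socs3: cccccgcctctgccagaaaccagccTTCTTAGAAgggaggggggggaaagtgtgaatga
The match is a description of the sequence, and binding was not measured.

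The mean levels of the 10 genes were also compared per kb of exon. After DMSO the order was *Stat3* at 23.7 ± 5.43 CPM per kb (SD, n = 4), *Il6st* at 15.8 ± 0.934, *Il6ra* at 9.65 ± 1.40, *Socs3* at 6.99 ± 3.73, *Lifr* at 1.79 ± 0.224 and *Osmr* at 1.07 ± 0.185. The ligands had the lowest means, with *Il11* at 0.718 ± 0.366, *Osm* at 0.497 ± 0.272, *Il6* at 0.255 ± 0.370 and *Lif* at 0.204 ± 0.0664. The ranges over the control mice overlapped between *Stat3* and *Il6st*, between *Il6ra* and *Socs3*, between *Osmr* and *Il11*, and between each ligand and the next in this order, whereas *Il6st* and *Il6ra*, *Socs3* and *Lifr*, and *Lifr* and *Osmr* were separate, as were *Il11* and *Lif* at the ends of the ligand order. After ABT-263 the mean of *Socs3* was 49.7 ± 55.7 CPM per kb (SD, n = 3), above that of *Stat3* (26.8 ± 4.95), but only mouse 476 had more *Socs3* than *Stat3* on this scale. Alternative exons lie within introns of the longest coding transcript for 54.7% of the exon bases of *Osmr*, 52.8% of *Il6*, 34.6% of *Stat3* and 21.8% of *Il6st*. Their levels per kb, and the place of *Osmr* beside *Lifr* in this order, therefore depend on the gene model.

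The rest of the pathway was examined in 4 lists named for their roles. Among other ligands and receptors of the family, 9 of 11 genes were tested (*Cntf* and *Il31* were too low). The median log2 fold change was 0.09. Of the 9 genes, 0 were higher and 1 was lower, against 12.4% higher and 11.7% lower among all genes tested. The gene that was lower was *Il11ra1*, which encodes the IL-11 binding chain. It was at 215, 233, 226 and 253 CPM in DMSO mice 480 to 483 and at 160.5, 132 and 154 CPM in ABT-263 mice 476 to 478. For *Il11ra1* the log2 fold change was -0.64 (adjusted p = 0.0158, standard error 0.13), and it passed with any 1 mouse left out. Both chains that bind IL-6 and IL-11 before gp130 were thus lower, and the groups were separate for each.

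Of 13 genes for JAKs, other STATs and adaptors, 4 were higher and 0 lower (median log2 fold change 0.59, 24.2% of all genes passing in either direction). *Jak2* had the largest change of these 4, at 14.7 ± 1.59 CPM in controls (SD, n = 4) and 43.0 ± 22.5 CPM in treated mice (SD, n = 3). Its log2 fold change of 1.55 (adjusted p = 0.0138) passed with any 1 mouse left out. *Jak1*, the kinase on which gp130 signaling chiefly depends, rose by 0.68 (adjusted p = 0.0196), *Ptpn11*, which encodes the phosphatase SHP2 that couples gp130 to the MAP kinase pathway, by 0.59 (adjusted p = 0.0154), and *Tyk2* by 0.47 (adjusted p = 0.0490). The treated and control mice were separate for each of these genes. *Jak1* lost its call without mouse 482, 483, 476 or 478 (adjusted p 0.0537, 0.0566, 0.0565 and 0.0675), *Ptpn11* without 482 or 478 (0.0512 and 0.0535), and *Tyk2* passed only without 477 among the fits with a mouse left out. The list gave 1 call without DMSO mouse 482 or ABT-263 mouse 478, 2 without DMSO mouse 483 or ABT-263 mouse 476, and 7 without ABT-263 mouse 477. Of all genes tested, 10.3%, 9.39%, 11.7%, 12% and 21.6% passed in either direction without mouse 482, 478, 483, 476 and 477.

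The 14 negative regulators other than *Socs3* had 2 genes higher and 2 lower, with a median log2 fold change of -0.05, against 12.4% higher and 11.7% lower among all genes tested. *Socs7*, a family relative of *Socs3*, was lower at 35.5 ± 2.47 CPM (SD, n = 3) than after DMSO at 71.0 ± 13.7 CPM (SD, n = 4), which is 50.1% of the DMSO level (adjusted p = 0.00980). *Pias4*, which encodes a SUMO ligase that inhibits STATs, was at 75.2 ± 0.735 CPM after DMSO (SD, n = 4) and at 46.3 ± 4.99 CPM after ABT-263 (SD, n = 3, log2 fold change -0.70, adjusted p = 0.00877). *Pias2* (log2 fold change 0.81, adjusted p = 0.0161) and *Ptpn1* (0.88, adjusted p = 0.0371), which encodes the JAK phosphatase PTP1B, were higher. *Socs7* and *Pias4* passed with any 1 mouse left out, *Pias2* lost its call without mouse 482 or 478 (adjusted p 0.0519 and 0.0593), and *Ptpn1* without 481, 482, 483, 476 or 478 (0.0845, 0.0943, 0.0924, 0.0962 and 0.0547). The list gave 2 calls, both lower, without DMSO mouse 482 or ABT-263 mouse 478, where 10.3% and 9.39% of all genes tested passed in either direction.

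Of the 23 genes in the list of those widely described as induced through STAT3, 22 were tested, with a median log2 fold change of 1.34. Of these, 8 were higher and 0 lower, against 12.4% and 11.7% of all genes tested. The log2 fold change was positive for 19 and negative for 3, *Birc5* (-0.84), *Ccnd1* (-0.66) and *Bcl2l1* (-0.20). None of these 3 passed (adjusted p = 0.0796, 0.0845 and 0.478), although every treated mouse lay below every control for *Ccnd1*. *Hif1a*, encoding the hypoxia-inducible factor, was at 34.0 ± 3.89 CPM in controls (SD, n = 4) and 104 ± 37.8 CPM in treated mice (SD, n = 3), with log2 fold change 1.61 (adjusted p = 0.00681). *Fos*, an AP-1 subunit, was at 7.01 ± 1.86 CPM in controls (SD, n = 4) and 39.3 ± 23.8 CPM in treated mice (SD, n = 3), with log2 fold change 2.49 (adjusted p = 0.00807). Both passed with any 1 mouse left out, with *Fos* at 1.88 without mouse 476 (adjusted p = 0.0151). *Vegfa* (1.34), *Myc* (0.62) and *Il4ra* (1.90) also rose, and so did the acute-phase genes *Saa1* (3.17), *Hp* (2.76) and *Saa2* (2.91), with adjusted p-values from 0.0162 to 0.0495, although the groups overlapped for *Hp* and *Saa2*. *Vegfa* lost its call without mouse 482 (adjusted p = 0.0520) and *Myc* without 482 or 478 (0.0528 and 0.0590). The others were less stable, since *Il4ra* lost its call in 4, *Saa1* and *Hp* in 5, and *Saa2* in 6 of the 7 fits that left out 1 mouse. *Il4ra* lost it without 481, 482, 483 or 476, *Saa1* without 480, 482, 483, 476 or 478, *Hp* without 480, 481, 482, 476 or 478, and *Saa2* without any mouse but 477. Without mouse 476 the log2 fold changes were 1.13 for *Il4ra* (adjusted p = 0.0568), 2.27 for *Saa1* (0.102), 1.66 for *Hp* (0.181) and 1.26 for *Saa2* (0.199), and without mouse 483 that of *Hp* was 3.35 (0.0478). *Saa1* and *Saa2* are close paralogs, so the assignment of reads between them is uncertain. Most of these genes also answer to other pathways. The list had 4 calls without ABT-263 mouse 476 (median log2 fold change 0.62), 4 without mouse 478, 5 without DMSO mouse 480, 481 or 483, and 2 without DMSO mouse 482. Of all genes tested, 12%, 9.39%, 23.5%, 16.1%, 11.7% and 10.3% passed in either direction without mouse 476, 478, 480, 481, 483 and 482.

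**Figure D3:**
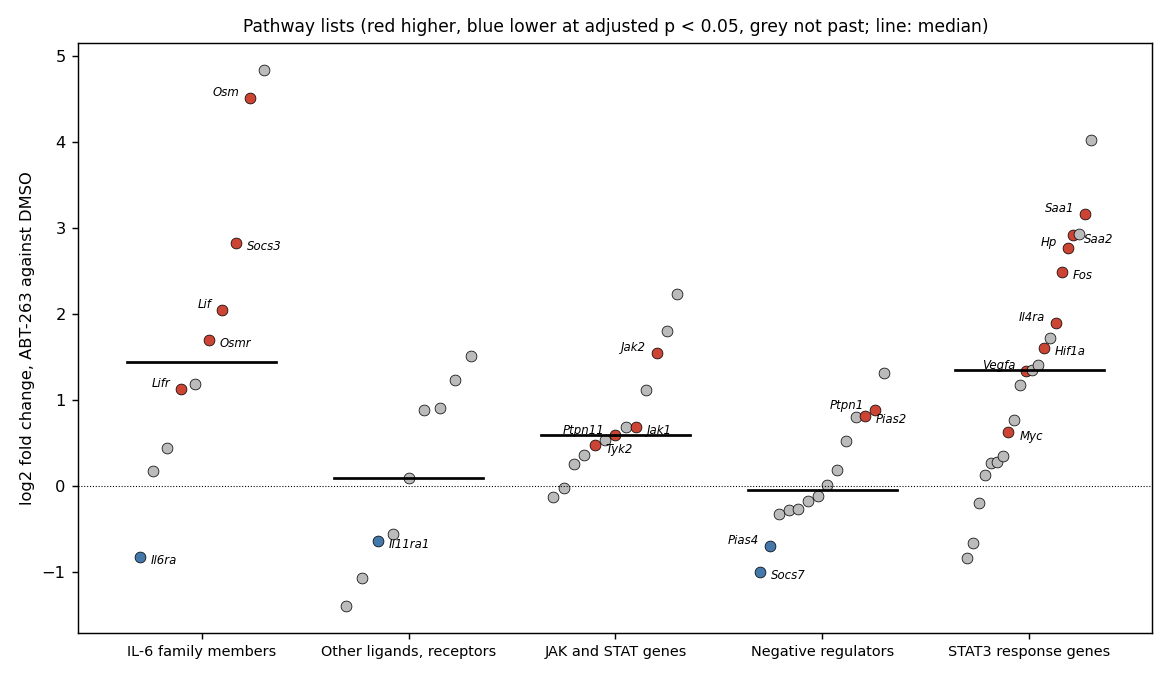
Log2 fold change, ABT-263 against DMSO, of each tested gene in the 10 members and 4 pathway lists, with 1 point per gene, names on genes past the adjusted threshold and a line at each list's median. Medians are 1.44 for the members, 1.34 for the STAT3 response genes, 0.59 for the JAK and STAT genes, 0.09 for other ligands and receptors and -0.05 for negative regulators.

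Summed markers of neutrophils, macrophages, endothelial cells and fibroblasts were higher in every treated mouse than in every control. Those of T cells and mast cells overlapped between the groups. Summed neutrophil markers (7 genes, 6 tested, 3 of them higher) spanned 100.4 to 1822 CPM in controls and 5098 to 8377 CPM in treated mice, with mouse 476 highest. Most of that sum came from *S100a8* and *S100a9*, which stressed keratinocytes also express. *Csf3r*, the receptor of granulocyte colony-stimulating factor, was at 1.35 to 3.72 CPM in controls and 10.7 to 78.0 CPM in treated mice (adjusted p = 0.0175), and *Retnlg* at 0.0843 to 1.03 CPM and 2.09 to 232 CPM (adjusted p = 0.0367), both higher in every treated mouse. *Ly6g*, which was too low to be tested, had 391 counts in mouse 476 and at most 8 in any other mouse, with 0 in DMSO mice 480 and 482. The neutrophil markers *S100a9*, *Cxcr2* and *Mmp8* did not pass (adjusted p = 0.0772, 0.0965 and 0.0715), and the groups overlapped for *Mmp8*. Summed macrophage markers (7 genes, 5 higher) spanned 369 to 1093 CPM and 1228 to 3900 CPM, again with mouse 476 highest. Endothelial markers (4 of 4 genes higher) ran from 116 to 265 CPM and from 394 to 521 CPM. Fibroblast markers (3 of 5 higher) ran from 3692 to 5135 CPM and from 5768 to 8073 CPM, with mouse 478 highest. Among all genes tested, 12.4% were higher. Of the T cell, keratinocyte, adipocyte and mast cell markers (6, 6, 4 and 4 genes), 0 passed, with 20 of 20 genes tested in edgeR. T cell markers spanned 12.7 to 22.2 CPM in controls and 10.8 to 43.1 CPM in treated mice. Of 5 skeletal muscle genes 1 was lower (*Tnnc2*), and of 6 hair follicle genes 1 was lower (*Shh*). The part of these cell types in the changes of *Osm*, *Osmr*, *Lifr*, *Il6ra* and *Socs3* was not tested.

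**Figure D4:**
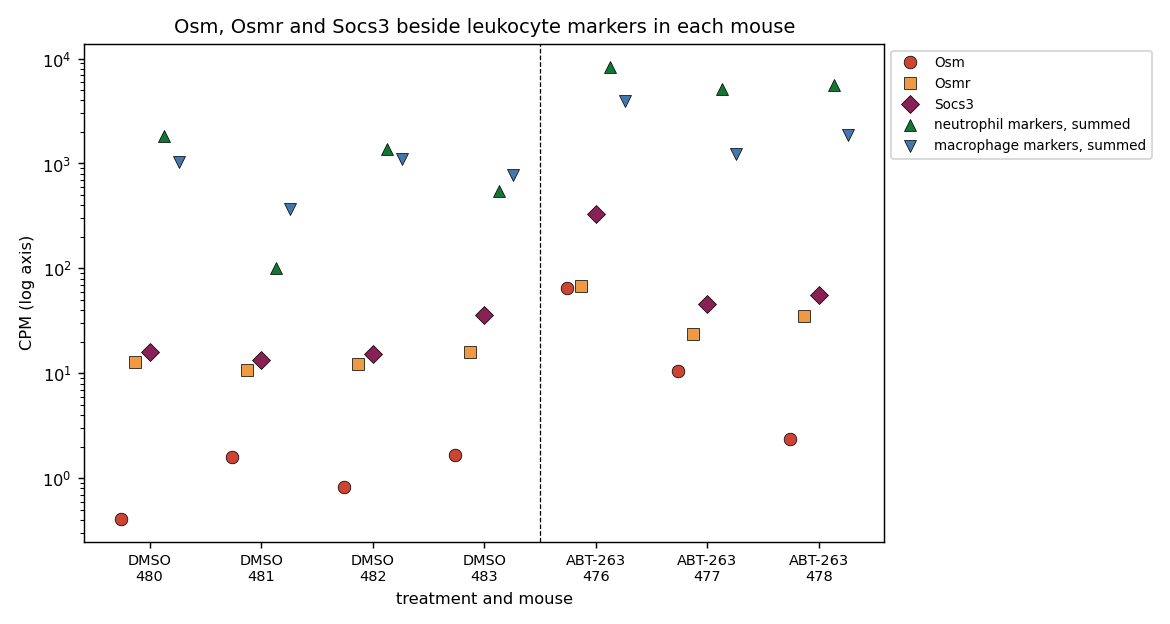
*Osm*, *Osmr* and *Socs3* and the summed neutrophil and macrophage markers in each mouse, in CPM on a log axis, with DMSO mice left and ABT-263 mice right of the dashed line. Mouse 476 is highest in each of the 5 series, with *Osm* at 65.2 CPM, *Socs3* at 329 CPM and summed neutrophil markers at 8377 CPM.

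The genes most like 5 of the members over the 7 mice were found by the root mean square difference of log2(CPM + 0.5), each gene centred on its own mean, among 13679 other protein-coding genes. The gene nearest to *Osmr* was *Pdgfra*, the platelet-derived growth factor receptor that marks fibroblasts, with a difference of 0.0506 on the log2 scale. *Pdgfra* was at 19.1, 15.4, 19.3 and 24.7 CPM in DMSO mice 480 to 483 and at 107, 36.3 and 51.2 CPM in ABT-263 mice 476 to 478. *Tiparp* (0.126) and *H6pd* (0.127) followed. For *Il6* the nearest were the pentraxin gene *Ptx3* (0.344), *Car4* (0.495) and the chemokine gene *Cxcl1* (0.552), each of them highest in mouse 476. Genes near *Socs3* included *Cd274* (0.296), which encodes PD-L1, and the cytokine gene *Il24* (0.315). For *Lifr* they were *Naalad2* (0.0924), the antioxidant regulator *Nfe2l2* (0.104) and *Fam45a* (0.116), and for *Stat3* *Renbp* (0.0847), the matrix protease gene *Mmp14* (0.0874) and *Galnt7* (0.0880). These distances describe 7 mice and carry no test. Adding 0.5 CPM shrinks the changes of genes near the floor, such as *Il6* and *Il24*, so a small distance does not mean equal fold changes. The log2 fold change was 2.83 for *Socs3* and 4.32 for *Il24*. It was 4.84 for *Il6*, 3.54 for *Ptx3*, 3.62 for *Car4* and 5.27 for *Cxcl1*.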

How the data were processed

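Bulk RNA sequencing libraries of 7 mice (4 DMSO, 3 ABT-263), grouped by their labels, were analyzed. The authors aligned reads to mm10 with STAR 2.7.9a and counted uniquely aligned proper pairs on the same strand per Ensembl gene with featureCounts (Subread 1.6.2), with mitochondrial genes excluded. The deposited counts are raw. Deposited log2 values from a variance-stabilizing transformation were made by the authors with DESeq2 1.23.10 and served only as an alternative. Symbols, positions and exon lengths came from GENCODE M21 on GRCm38 (55190 of 55450 identifiers), an annotation other than the Ensembl release that the authors counted with. Total counts per library were 20344364 to 43562330.

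Counts were fitted in R 4.3.3 with edgeR 4.0.16 (TMM, filterByExpr, robust quasi-likelihood F test, two-sided, Benjamini-Hochberg adjustment over the 17959 genes tested, threshold 0.05). Standard errors were taken from the log2 fold change and F statistic. Ratios within a mouse were compared by exact permutation over 35 splits. The scripts were tested on simulated data. The genes, pathway lists and markers were chosen with earlier results of these data known. Named are the 10 members, at most 8 genes past the threshold per pathway list, *Adam10* and *Adam17*, and the 3 nearest patterns of 5 members (mean of at least 1 CPM), of which 1 is not reported here. Other genes named (*Cntf*, *Il31*, *Birc5*, *Ccnd1*, *Bcl2l1*, *S100a8*, *S100a9*, *Csf3r*, *Cxcr2*, *Mmp8*, *Retnlg*, *Ly6g*, *Tnnc2* and *Shh*) were chosen after their values were seen. Other settings tried were DESeq2 size factors, the Wald test of DESeq2 1.42.0, every gene with a count, at least 10 counts in every sample, trends on length and GC content removed (mgcv 1.9.3), counts thinned to the smallest library, limma 3.58.1 on the variance-stabilized values, and each mouse left out. P-values judge the difference between groups against the spread between mice, and intervals on counts cover counting error only.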

Additional observations from a re-analysis of the deposited data

Results flagged for a closer look

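Among the 4 DMSO mice, *Socs3* stood apart in mouse 483, whose 36.3 CPM lay far above the 13.3 to 16.1 CPM of the other controls. Its gap to the next mouse was 0.876 of the range of the group, above Dixon's critical value for 4 samples. It was the only 1 of 31 measures examined that exceeded this value, where chance gives 1.55. Without mouse 483 the log2 fold change of *Socs3* was 3.27 (adjusted p = 0.0485).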

How the results depend on the processing

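No paired analysis was possible because the groups share no mouse numbers. All 10 genes passed the filter on low counts, so the test meant for genes below it was not run. The number of the 10 genes past the threshold stayed between 4 and 6 with every gene with a count, at least 10 counts in every sample, DESeq2 size factors, length and GC trends removed, thinned counts, limma and the DESeq2 Wald test, and between 3 and 7 with 1 mouse left out. DESeq2 gave no adjusted p-value for *Il6*, *Il11* and *Socs3* under its default filters, and 5 of the other 7 passed. *Socs3* had at least 296 counts in every mouse, whereas *Lif*, which did get a value, had as few as 13. Which filter removed each value was not examined. Testing every gene with a count took the call from *Osm* (adjusted p = 0.0953) and *Socs3* (0.120), and limma took it from *Osm* (0.0528) and *Lif* (0.0629). *Il11* reversed to -1.51 without mouse 476 and ran up to 1.76 with another mouse left out. Over all genes, 4342 passed, against 2837, 1824, 2063, 2228 and 1735 without mouse 481, 482, 483, 476 and 478. As a share of all genes tested, 11.1% to 26.8% passed in the other settings with all mice kept, and 9.39% to 23.5% with 1 mouse left out. No alternative moved the median log2 fold change of all genes by over 0.1.

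For other ligands and receptors the count was 3 with DESeq2 and 2 with at least 10 counts in every sample. For the JAK and STAT genes it was 7 with DESeq2. For the STAT3 response genes it was 15 with DESeq2 and 4 with every gene with a count, where 30645 genes were adjusted for. With 1 mouse left out, these 3 counts ran from 1 to 2, from 1 to 7 and from 2 to 10, that of negative regulators from 2 to 4 and that of the shedding proteases from 1 to 2. Of all genes tested, 26.8% passed with DESeq2, 26.1% with at least 10 counts in every sample and 11.1% with every gene with a count. The difference of the *Osmr* to *Lifr* log2 ratio ran from 0.24 to 0.62 and that of *Socs3* to *Stat3* from 1.39 to 2.66, where exact tests with a mouse left out cannot reach the threshold. The cause of these changes was not tested. Depth limits the ligands most, with 0 to 63 counts in the DMSO mice.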
